A study of Mus musculus with 12 samples.

Results

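Mouse embryonic stem cells (mESCs) in which PROSER1 had been knocked out and then put back (KO+Rescue) were compared with wild-type (WT) mESCs by RNA sequencing. The comparison uses 4 of the 12 libraries of the series, 2 of KO+Rescue and 2 of WT, all taken at the stem cell stage. It was chosen by the column names of the deposited count table. The other 8 libraries are the 2 knockout (KO) mESC libraries and 6 libraries of the same 3 genotypes after culture in N2B27, a basal medium without serum that lets mESCs leave the naive state. They enter only where a KO+Rescue value has to be set beside them. Of 35976 genes in the table, 15335 were tested. These are not Y-linked, and their normalised counts averaged 10 or more over the 12 libraries.

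All lines descended from mESCs derived from blastocysts that were homozygous for a floxed Tet2 allele (Tet2 fl/fl), so the WT cells carry that allele too. The KO line is 1 clone, grown from a sorted single cell after CRISPR-Cas9 cutting in the first coding exon of Proser1. KO+Rescue cells are that KO clone carrying a PiggyBac construct that encodes Proser1 with a double FLAG tag, followed by an internal ribosome entry site and a blasticidin resistance gene. They were selected with blasticidin and, by the main methods, subcloned by limiting dilution. No sorting, selection or subcloning is described for WT cells. Clonal history, selection and the return of PROSER1 therefore cannot be told apart in this comparison. All cells were kept without feeders on gelatin, in medium with serum, leukaemia inhibitory factor and the "2i" inhibitors CHIR99021 (of GSK3, which switches on Wnt signalling) and PD0325901 (of MEK, which blocks ERK signalling). How the cultures behind the 2 libraries of a group were kept apart is not stated beyond the label of biological replicates, so p-values measure the spread between these samples only. The letters A and B name the 2 libraries of a group. No label spells out which column code stands for KO and which for KO+Rescue, and the reading used here is an inference from the code for the KO line with an added R.

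PROSER1 is a proline- and serine-rich protein that binds the TET enzymes, which oxidise 5-methylcytosine in DNA as a step towards its removal. It is found with TET proteins, the sugar transferase OGT and the paraspeckle proteins PSPC1 and NONO. The paper names SFPQ only as another protein with which PSPC1 can pair. In mESCs, DNA methylation keeps germline genes, one parental copy of imprinted genes and endogenous retroviruses silent. The comparison with WT asks how far a line that expresses PROSER1 again resembles cells that never lost it.

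The site used to make the KO is shown because every KO+Rescue library carries the edited allele beside the construct. The guide of 19 bases matched the reference genome once, in exon 1 of 13 of Proser1, within the coding sequence, at chr3:53371720-53371741 on the plus strand (GRCm39, transcript Proser1-201). Capitals mark the PAM.
Proser1 guide target: gtgctggatgaaattcgaaAGG
The gene itself spans chr3:53370996-53390357 in the same build.

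The 4 libraries held 38634668 to 55343981 assigned reads. The defining mESC markers were high in every library. Summed over 7 genes (among them Pou5f1, Sox2 and Nanog), they came to 288380 and 328612 normalised counts in KO+Rescue libraries, 286885 and 307597 in KO libraries, and 224799 and 270511 in WT libraries. Markers of fibroblasts and feeders summed to 175 and 123 in KO+Rescue, 195 and 156 in KO, and 447 and 375 in WT, with Postn at 0 in all 6 and most of the sum from Thy1. The sums for primitive endoderm, trophoblast, neural progenitors and 2-cell-like cells lay between 47.8 and 215 in these 6 libraries. Between the 2 libraries of a group, the median absolute log2 difference per gene was 0.226 in KO+Rescue, 0.168 in KO and 0.328 in WT. WT A stood apart from the other 5 mESC libraries by its balance of short and long transcripts, which is described with the ribosomal protein genes below.

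Proser1 itself was the first check of the labels. It reached 2828 and 3089.8 normalised counts in KO+Rescue libraries, 576 and 502 in KO libraries, and 889 and 550.5 in WT libraries. Both KO+Rescue libraries lay far above all others, and the KO libraries still held Proser1 reads, close in number to the lower WT library. The difference from WT on the log2(normalised count + 1) scale was 2.08 ± 0.20 (standard error), a 4.22-fold excess (adjusted p = 0.00013, limma with Benjamini-Hochberg adjustment over the 15335 genes). Against KO it was 2.46 (adjusted p = 0.00022). Reads from the construct and from the edited endogenous gene are summed in these counts.

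Of the 8 tested genes in the list for the PROSER1 complex, which includes Sfpq, 1 other rose. Pspc1, a paraspeckle protein, had 9112 and 10334 normalised counts in KO+Rescue, 7916 and 8926 in KO, and 6380.1 and 7818 in WT libraries (log2 difference 0.46 ± 0.15, adjusted p = 0.046). The call was lost without KO+Rescue A (adjusted p = 0.051), without KO+Rescue B (0.29) and without WT A (0.31). The list members Ogt (-0.21 ± 0.13, adjusted p = 0.27), Nono (-0.07 ± 0.12, adjusted p = 0.73) and Sfpq (-0.15 ± 0.19, adjusted p = 0.61) did not pass. Neither did the dioxygenases Tet1 (0.28 ± 0.20, adjusted p = 0.32), Tet2 (-0.02 ± 0.18, adjusted p = 0.95) and Tet3 (-0.65 ± 0.41, adjusted p = 0.28). Tet3, the TET enzyme of differentiated cells, was scarce, with 41.8 and 28.5 normalised counts in KO+Rescue, 59.4 and 17.5 in KO, and 61.6 and 48.8 in WT libraries.

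Across all genes, 1397 (9.11%) were called higher and 1387 (9.04%) lower in KO+Rescue than in WT mESCs at an adjusted p under 0.05. Of these, 466 higher and 528 lower genes differed at least 2-fold. Counts of calls in the gene lists below are to be read beside the shares of 9.11% and 9.04%. The median log2 difference of all tested genes was -0.06. For 8917 genes (58.1%) the 2 groups did not overlap at all, so lack of overlap in a gene below is not further support for its call. The number of calls rested on 2 libraries. Without KO+Rescue B 270 genes were called, 35 higher and 235 lower, and without WT A 283, 71 higher and 212 lower. Without KO+Rescue A there were 2894 calls, and without WT B 4270. A core of 181 genes, 31 higher and 150 lower, was called whichever of the 4 libraries was left out, and genes described as "in the core" below belong to it. Scaling to equal library totals in place of the authors' size factors moved the median of all genes to -0.38 and the split to 666 higher and 3887 lower, so directions are given relative to the other genes.

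**Figure D1:**
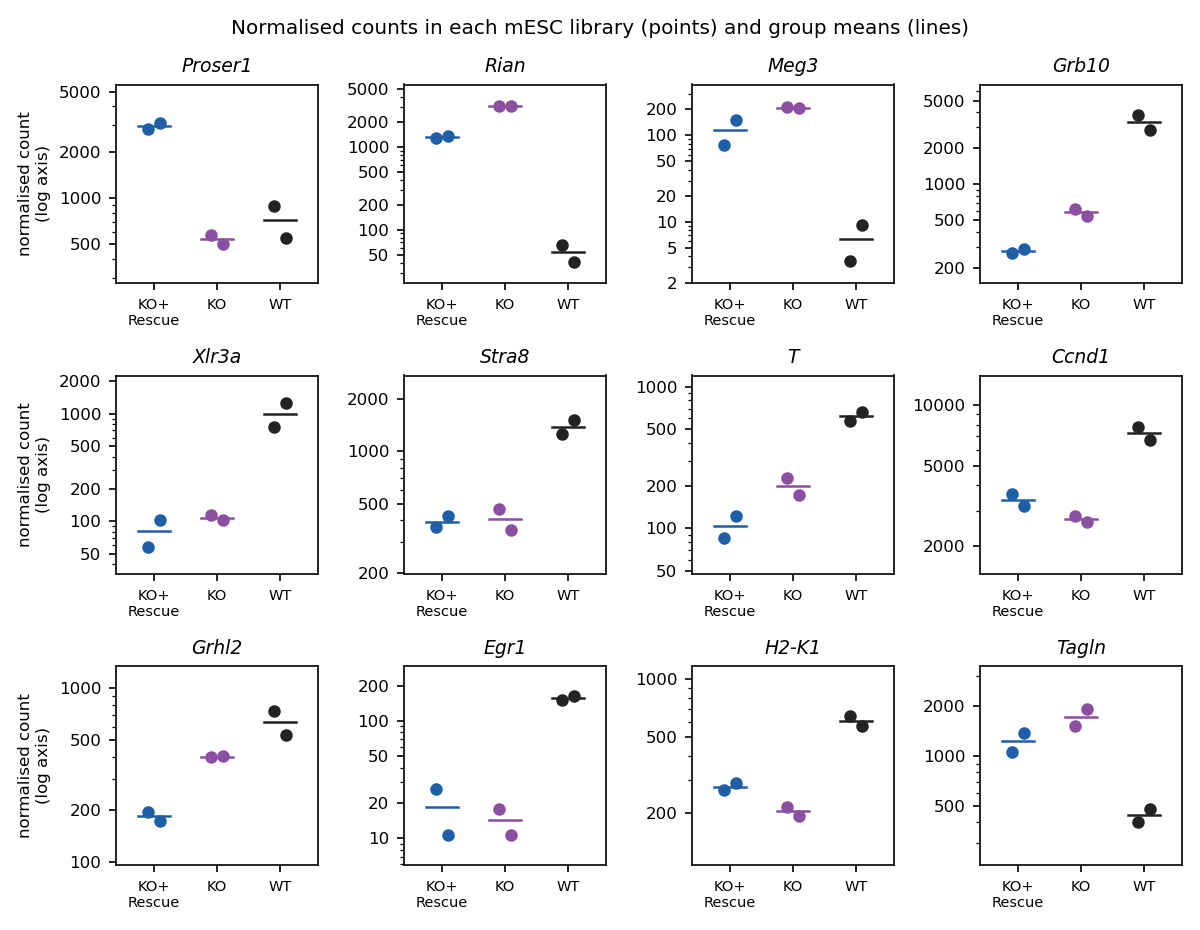
Normalised counts (log axis) of 12 genes in each mESC library (points) with group means (lines), for KO+Rescue, KO and WT from left to right. Proser1 in KO+Rescue lies above the other groups, whereas for Rian, Meg3, Xlr3a, Stra8 and Tagln both the KO+Rescue and the KO libraries lie on the same side of WT.

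Among genes with a mean of at least 50 in the higher group, the largest increases were in maternally expressed RNAs of the Dlk1-Dio3 imprinted cluster on chromosome 12. Rian, a long noncoding RNA that hosts small nucleolar RNAs, had 1277 and 1352 normalised counts in KO+Rescue libraries, 3159 and 3094 in KO, and 65.2 and 40.7 in WT. All KO+Rescue values were far above WT and below KO. The log2 difference from WT was 4.65 ± 0.21, or 25-fold (adjusted p = 1e-07, limma). Against KO, Rian was lower by a log2 difference of -1.25 (adjusted p = 0.013), a call that each of the 4 fits without a library lost.

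Meg3, the noncoding RNA that opens the same transcribed domain, had 76.3 and 151 normalised counts in KO+Rescue, 214 and 204 in KO, and 3.56 and 9.16 in WT. The log2 difference was 4.0 ± 0.37, or 16-fold (adjusted p = 0.00011). For Mirg, a microRNA host further along, 61 reads were counted in the 2 KO+Rescue libraries together and 1 in the WT libraries, a ratio of 73.4 after scaling for depth (95% counting interval 12.7 to 2946). Intervals of this kind cover counting error only. Rian, Meg3 and Mirg are in the core.

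Dio3, the paternally expressed thyroid hormone deiodinase of the cluster, had 183 and 169 normalised counts in KO+Rescue, 149 and 232 in KO, and 46.2 and 78.4 in WT. KO+Rescue and WT did not overlap, but its call (1.53 ± 0.37, adjusted p = 0.02) was lost without KO+Rescue A (adjusted p = 0.051), KO+Rescue B (0.12) or WT A (0.17). Dlk1, the paternally expressed Notch-like ligand, and Begain were tested and not called. Over the 6 tested members, 4 rose and none fell, with a median of 2.76 against -0.06 for all genes.

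Among 44 other imprinted genes, 3 rose and 10 fell (median -0.20). Grb10, an adaptor that restrains insulin and growth factor receptors, fell most. It had 268 and 287 normalised counts in KO+Rescue libraries, 615 and 544 in KO, and 3792 and 2858 in WT. Both KO+Rescue libraries were below both KO libraries, which were themselves far below WT. The difference from WT was -3.57 ± 0.16, 11.8-fold lower (adjusted p = 1e-07). Against KO it was -1.06 (adjusted p = 0.0079), and that call was lost without KO+Rescue B or KO A.

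Usp29, a paternally expressed gene of the Peg3 domain, had 86.8 and 71.2 normalised counts in KO+Rescue, 134 and 152 in KO, and 402 and 513 in WT (-2.51 ± 0.22, adjusted p = 7.1e-05). Gnas, the stimulatory G protein subunit, had 3234 and 3049 in KO+Rescue, 3439.9 and 3379 in KO, and 6126 and 4865 in WT (-0.80 ± 0.13, adjusted p = 0.005). The growth suppressors Ndn (-0.80) and Cdkn1c (-0.73) fell as well, and the splicing factor gene Zrsr1 rose (0.66 ± 0.13, adjusted p = 0.011), but these 3 calls were lost without KO+Rescue B (adjusted p = 0.057, 0.089 and 0.064, in that order). Grb10, Usp29 and Gnas are in the core. Without KO+Rescue B the list gave 0 higher and 3 lower calls, and without WT A 3 higher and 4 lower.

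Germline genes, whose promoters are methylated in most other cells, were mostly lower. Of 42 tested, 23 fell, 2 rose (Hormad2 and Tdrkh) and 17 were not called, with a median of -0.68. The lower calls numbered 13 without KO+Rescue A, 7 without KO+Rescue B and 12 without WT A. Xlr3a, an X-linked gene of a lymphocyte- and germ-cell-expressed family, had 58.6 and 103 normalised counts in KO+Rescue libraries, 114 and 103 in KO, and 748 and 1259.7 in WT. KO+Rescue and KO overlapped, with KO+Rescue B between the 2 KO libraries, and all 4 lay far below WT (-3.62 ± 0.36, 12.3-fold lower, adjusted p = 0.00017). Xlr3b (-3.02 ± 0.33) and Xlr3c (-2.84 ± 0.50) moved alike, but Xlr3a, Xlr3b and Xlr3c are near-identical copies whose reads the counting could have split, so they are not 3 separate observations.

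Genes outside such families fell as well. Stra8, the retinoic acid-induced gatekeeper of meiosis, had 364 and 424 normalised counts in KO+Rescue, 464 and 353 in KO, and 1257 and 1517 in WT (-1.81 ± 0.23, adjusted p = 0.00094). Sycp1, which zips paired chromosomes together in meiosis, had 365 and 415 in KO+Rescue, 461 and 372 in KO, and 1073 and 1075 in WT (-1.46 ± 0.18, adjusted p = 0.00067). Piwil2, a PIWI protein of the piRNA pathway, had 513 and 433 in KO+Rescue, 403 and 376 in KO, and 991 and 909 in WT (-1.01 ± 0.14, adjusted p = 0.002). In these genes all KO+Rescue and KO libraries lay below both WT libraries. Nxf3, an X-linked relative of the mRNA export factors, was at 22 and 46.3 in KO+Rescue, 71.7 and 87.7 in KO, and 216 and 258 in WT (-2.85 ± 0.36, adjusted p = 0.00077). All of these genes are in the core.

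Genes that mESCs switch on as they leave the naive state, and targets of the Wnt and ERK pathways, were lower in KO+Rescue. Of 20 formative and primed genes 9 fell (median -0.68), of 18 Wnt targets 8 fell (median -0.66) and of 15 ERK feedback and ETS genes 5 fell (median -0.41). None of the 3 lists had a member called higher. Some genes stand in more than 1 list. Without KO+Rescue B the lower calls were 5, 5 and 3, and without WT A 5, 4 and 3, in the same order of lists. Without WT B the ERK list had 8.

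T (brachyury), a Wnt target and the defining factor of mesoderm, had 85.7 and 123 normalised counts in KO+Rescue libraries, 225 and 171 in KO, and 569 and 665 in WT. The 3 groups did not overlap, with KO+Rescue lowest. Its difference from WT was -2.57 ± 0.26, 5.95-fold (adjusted p = 0.00017). Wnt8a, a Wnt ligand of early gastrulation, had 48.1 and 67.7 in KO+Rescue, 252 and 228 in KO, and 231 and 191 in WT. Here the KO and WT libraries overlapped and KO+Rescue alone was low (-1.86 ± 0.20 against WT, adjusted p = 0.00023, and -2.05 against KO, adjusted p = 0.00042).

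The D-type cyclins drive cells out of G1 and answer to both pathways. Ccnd2 had 138 and 171 normalised counts in KO+Rescue, 109 and 97.1 in KO, and 746 and 597 in WT (-2.11 ± 0.21, adjusted p = 0.00017). Ccnd1, at higher counts, had 3627 and 3161 in KO+Rescue, 2819 and 2625 in KO, and 7774 and 6692 in WT (-1.09 ± 0.13, adjusted p = 0.00048). For both, KO+Rescue lay slightly above KO and well under WT. Tcf7, a transcription factor through which beta-catenin acts, had 754 and 654 in KO+Rescue, 729 and 664 in KO, and 1662 and 1289 in WT (-1.06 ± 0.14, adjusted p = 0.0011). T, Wnt8a, Ccnd2, Ccnd1 and Tcf7 are in the core. Dkk4, a secreted Wnt inhibitor, was called lower (-3.19 ± 0.81, adjusted p = 0.022), and lost its call in each fit that left out a library, where its adjusted p ran up to 0.14.

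Egr1, an immediate early factor and a direct readout of ERK, had 26.1 and 10.7 normalised counts in KO+Rescue libraries, 17.9 and 10.8 in KO, and 151 and 162 in WT (-3.14 ± 0.34, 8.82-fold lower, adjusted p = 0.00024). KO+Rescue and KO overlapped at a level far below WT. Egr1 stands in the immediate early list, not in the ERK list counted above. Of the 18 tested immediate early genes 3 fell, none rose and 15 were not called (median -0.29). The phosphatases that shut ERK off were also lower. Dusp6 had 1568 and 1225 in KO+Rescue, 1373 and 1326 in KO, and 2603 and 2385 in WT (-0.85 ± 0.13, adjusted p = 0.0035), and Dusp4 fell by 1.38 (SE 0.23, adjusted p = 0.0042). Egr1, Dusp6 and Dusp4 are in the core. The feedback inhibitors Spry2 (-0.67) and Spry4 (-0.88) fell too, but both calls were lost without KO+Rescue B or WT A.

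Hmga2, a chromatin protein and let-7 target, and Sema6a, an axon guidance ligand, had the pattern of Wnt8a. Hmga2 had 305 and 305 normalised counts in KO+Rescue, 765 and 728 in KO, and 889 and 693 in WT (-1.36 ± 0.16, adjusted p = 0.00048). Sema6a had 14.6 and 14.2 in KO+Rescue, 78.4 and 78.2 in KO, and 94.8 and 56.0 in WT (-2.26 ± 0.21, adjusted p = 0.00011). In both genes the KO libraries lay within the WT range and the KO+Rescue libraries below it, and both genes are in the core.

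Epithelial genes moved the same way. Of 21 cadherin and epithelial junction genes, 10 fell and 1 (Cldn4) rose, with a median of -0.68, and the lower calls numbered 9 without KO+Rescue B and 6 without WT A. Grhl2 and Cldn6 also stand in the formative and primed list and are among its lower calls above. Grhl2, a transcription factor that maintains epithelia, had 193 and 173 normalised counts in KO+Rescue libraries, 399 and 405 in KO, and 740 and 535 in WT. The groups formed 3 separate steps with KO+Rescue lowest. Grhl2 differed from WT by -1.78 ± 0.18 (adjusted p = 0.00017) and from KO by -1.13 (adjusted p = 0.0088), the second a call that only the fit without KO+Rescue A kept. Esrp1, an epithelial splicing regulator, had 439 and 436 in KO+Rescue, 668 and 704 in KO, and 1075 and 890 in WT (-1.16 ± 0.14, adjusted p = 0.00059). Cdh3 (P-cadherin, -1.60 ± 0.23), Cldn6 (a claudin, -1.06 ± 0.17) and Ocln (occludin, -0.84 ± 0.15) fell as well. All 5 are in the core.

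None of the 11 core pluripotency genes was called (median -0.16), but this count depended on the setting. It was 6 lower with equal library totals, 5 lower without WT B, 5 lower and 1 higher with the replicate letter as a block, 2 lower with edgeR or DESeq2, and 1 lower of 10 with the transcript length trend removed. Pou5f1, which encodes OCT4, had 113279 and 132326 normalised counts in KO+Rescue, 119841 and 129356 in KO, and 84005 and 102907 in WT. KO+Rescue was above WT in every library, but the difference of 0.40 ± 0.20 did not pass (adjusted p = 0.17). Of 21 naive genes 3 rose, Zfp42 (REX1, 0.68), Fbxo15 (0.64) and Dppa5a (0.94), and 2 fell, Klf5 (-0.66) and Pecam1 (-0.51), with a median of 0.03. These counts lie near the shares over all tested genes, 9.11% higher and 9.04% lower. No naive gene was called without KO+Rescue B or without WT A.

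Of 17 DNA methylation enzymes and cofactors, 2 fell and none rose (median -0.23). That count of lower calls is near the share over all tested genes, 9.04%, but it depended on the setting. It was 10 with equal library totals, where 3887 of all tested genes were called lower. It was 5 with the replicate letter as a block, 4 with the transcript length trend removed and 0 with only the compared groups. Dnmt3a, a de novo DNA methyltransferase, had 5454 and 4730.0 normalised counts in KO+Rescue libraries, 5698 and 5780.0 in KO, and 9845 and 8328 in WT (-0.83 ± 0.13, adjusted p = 0.0031), and is in the core. Dnmt3l, its catalytically inactive cofactor, had 6350.2 and 4839 in KO+Rescue, 6488 and 6512 in KO, and 10214 and 8420.2 in WT (-0.74 ± 0.14, adjusted p = 0.009). Its call was lost without KO+Rescue B (adjusted p = 0.11) or WT A (0.08). For both genes the KO+Rescue and KO libraries were all below the WT libraries.

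Polycomb subunits, which deposit repressive histone marks, moved both ways, with 3 of 23 higher and 6 lower (median -0.06). Suz12, the scaffold of PRC2, had 8136 and 6858 normalised counts in KO+Rescue, 10196 and 9013 in KO, and 13061 and 12143 in WT (-0.75 ± 0.13, adjusted p = 0.0055). The accessory subunits Jarid2 (-0.73), Phf19 (-0.92) and Kdm2b (-0.61) and the methyltransferase Ezh1 (-0.84) also fell. Without KO+Rescue B, or without WT A, the list kept 0 higher and 1 lower call. The 22 beta protocadherins in the table, another class silenced by methylation, were all under the count minimum.

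**Figure D2:**
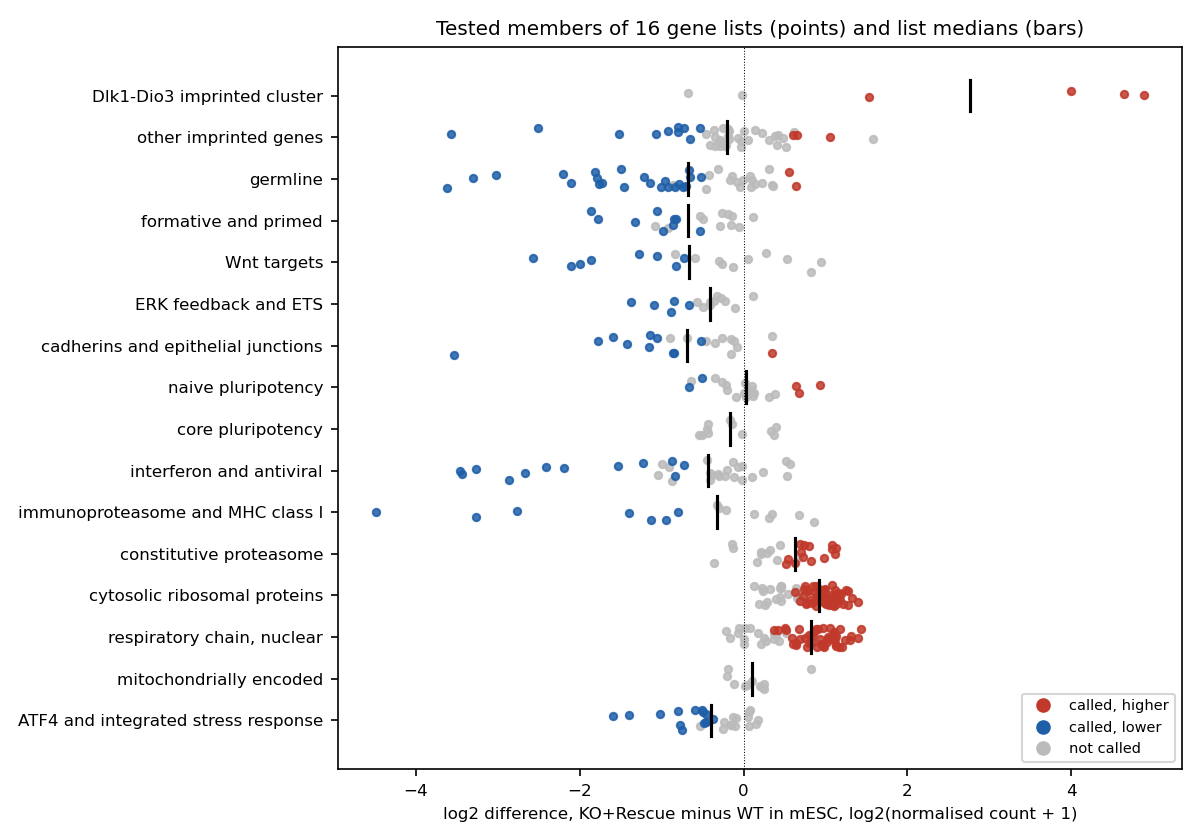
Log2 difference between KO+Rescue and WT mESCs of every tested member of 16 gene lists (points, coloured by call) with the median of each list (bars). Called members of the ribosomal protein and respiratory chain lists lie to the right of 0, 3 members of the Dlk1-Dio3 cluster lie at 4.0 or beyond, and called members of the Wnt, ERK and interferon lists lie to the left.

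Interferon-induced genes were lower in the stem cell state. Of 34 tested, 12 fell and none rose (median -0.43), with 3 lower calls each without KO+Rescue B and without WT A. Gbp2, an interferon-induced guanylate-binding protein, had 2.09 and 10.7 normalised counts in KO+Rescue libraries, 45.9 and 45.9 in KO, and 55.7 and 73.3 in WT. KO lay just under WT, and KO+Rescue well below both. The difference from WT was -3.43 ± 0.48, 10.8-fold lower (adjusted p = 0.0017), and that from KO -2.96 (adjusted p = 0.01), a call lost without KO A or KO B. Gbp3 had 2 reads in the KO+Rescue libraries and 29 in WT, a WT to KO+Rescue ratio of 12.1 (95% counting interval 3.05 to 104), and its call was lost without KO+Rescue B or WT A. Members of the Gbp family share long stretches of sequence, so the division of reads among them is uncertain.

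Oasl2, a relative of the double-stranded RNA sensors, had 2.09 and 3.56 normalised counts in KO+Rescue, 5.6 and 8.09 in KO, and 39.1 and 41.7 in WT (-3.46 ± 0.37, adjusted p = 0.00023). Bst2 (tetherin), which holds budding virions at the cell surface, was a more abundant member, at 981 and 1013 in KO+Rescue, 954 and 1055 in KO, and 1603 and 1714 in WT (-0.73 ± 0.15, adjusted p = 0.012). For both genes every KO+Rescue value was below every WT value. Gbp2 and Oasl2 are in the core. Bst2 lost its call without KO+Rescue B (adjusted p = 0.081) or WT A (0.056).

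Interferon acts through a response element, bound by the ISGF3 complex and IRF factors, that contains GAAA, any 2 bases and GAAA again. Windows reaching 250 bases before to 50 bases after each RefSeq gene start (GRCm38.p6) were searched on both strands. The letters stood in 3.44% of all 32851 windows and in 3.42% of the tested genes that had a window. Of 25 interferon-list genes with a window 14 held the letters, as did 7 of the 9 called lower. The match is shown in capitals for 3 of those genes, each within a stretch of 30 bases.
Gbp2, chr3:142620594-142620623, plus strand: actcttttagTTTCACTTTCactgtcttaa
Gbp3, chr3:142559995-142560024, plus strand: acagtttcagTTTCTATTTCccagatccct
Bst2, chr8:71537577-71537606, minus strand: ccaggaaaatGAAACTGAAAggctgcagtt
In Gbp2 and Gbp3 the match is to the opposite strand, so its reverse complement is printed. A match to letters is a description of the sequence and says nothing of binding.

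Antigen presentation genes fell alongside. Of 15 immunoproteasome and MHC class I genes, 7 were lower and none higher (median -0.32), with 3 lower calls without WT A. Psmb8, an inducible catalytic subunit of the immunoproteasome, had 0 normalised counts in both KO+Rescue libraries, 3.36 and 2.70 in KO, and 22.5 and 20.4 in WT. Psmb8 was thus at least 5.06-fold lower than WT when 3 reads in each KO+Rescue library are allowed (adjusted p = 7.1e-05). H2-K1, a classical MHC class I heavy chain, had 265 and 287 in KO+Rescue, 217 and 194 in KO, and 646 and 569 in WT (-1.14 ± 0.13, adjusted p = 0.00045). The peptide transporter genes Tap1 (-1.40 ± 0.24) and Tap2 (-3.26 ± 0.61) fell too, and both calls were just lost without WT A (adjusted p = 0.051 each). MHC class I genes are near-identical in parts, and reads could have been split among them. Only 3 of the 13 members with a promoter window held the interferon letters, and none of those was called lower.

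Many genes of protein synthesis and respiration, by contrast, were higher. Of 79 cytosolic ribosomal protein genes 53 rose and none fell (median 0.92), and of 62 nuclear-encoded respiratory chain genes 45 rose and none fell (median 0.82). Of 25 constitutive proteasome subunits 14 rose and none fell (median 0.63). With equal library totals 52 ribosomal genes were called higher and none lower, 31 respiratory genes higher and 1 lower, and 6 proteasome genes higher and 3 lower. The 11 tested mitochondrially encoded genes gave no call (median 0.10), COX1 among them (-0.20 ± 0.21, adjusted p = 0.54). No ribosomal or proteasome gene, and 1 respiratory gene, was called without KO+Rescue B, and the same counts held without WT A.

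Rps12, a small-subunit protein, had 331762 and 629618 normalised counts in KO+Rescue libraries, 279222 and 387265 in KO, and 134946 and 223374 in WT (1.40 ± 0.35, adjusted p = 0.022). KO+Rescue B was far above KO+Rescue A, and WT A was the lowest library. Atp5e, the epsilon subunit of ATP synthase, had 17671 and 32987 in KO+Rescue, 15282 and 21252 in KO, and 7138 and 11243 in WT (1.43 ± 0.28, adjusted p = 0.0093). Psma5, a subunit of the proteasome core, had 55095 and 88834 in KO+Rescue, 45076 and 55054 in KO, and 26327 and 41526 in WT (1.08 ± 0.27, adjusted p = 0.022). KO+Rescue and WT did not overlap in any of the 3 genes, as in 58.1% of all tested genes. KO+Rescue B was the highest and WT A the lowest library in each of the 3. All 3 calls were lost without KO+Rescue B (adjusted p = 0.21, 0.11 and 0.23, in the order Rps12, Atp5e, Psma5) or without WT A (0.20, 0.09 and 0.20).

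Ndufa2, a small subunit of complex I, was the respiratory gene in the core. It had 4299.7 and 5633 normalised counts in KO+Rescue, 4193 and 4914 in KO, and 2118 and 2755 in WT (1.03 ± 0.16, adjusted p = 0.0033). Its KO+Rescue and KO values overlapped, and all lay above both WT libraries. Hspe1, the mitochondrial co-chaperonin, was among the more abundant genes that rose (1.39 ± 0.31, adjusted p = 0.015), without a call when KO+Rescue B (0.17) or WT A (0.14) was left out.

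The ribosomal protein genes took 18.7% and 23.8% of assigned reads in KO+Rescue libraries, 17.8% and 20.1% in KO, and 13.1% and 16.3% in WT. Their transcripts are short and abundant, and both properties moved with the comparison. In the 14095 tested genes with a transcript length (91.9%), the median log2 difference was 0.36 in the shortest and -0.16 in the longest of 10 equal length classes. Per library, the shortest class stood at 0.22 and 0.51 above the WT mean in KO+Rescue, 0.17 and 0.33 in KO, and -0.16 and 0.16 in WT. KO+Rescue B was thus the library richest in short transcripts and WT A the poorest. With the length trend removed from the differences, 42 ribosomal protein genes (median 0.60) and 38 respiratory genes (median 0.55) were still called higher. Among the 1014 tested genes with a mean of at least 10000 in the 4 libraries, 314 were called higher and 40 lower.

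**Figure D3:**
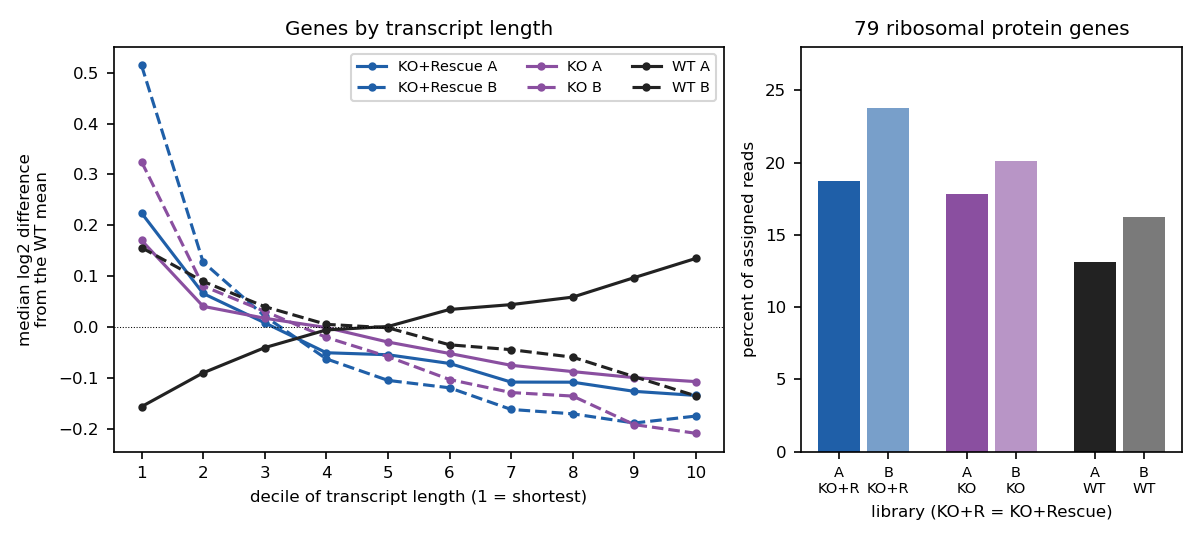
Left, median log2 difference from the WT mean of tested genes in 10 classes of transcript length, for each mESC library. Right, percent of assigned reads on 79 ribosomal protein genes in each mESC library, from 13.1% in WT A to 23.8% in KO+Rescue B.

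Rpph1 and Rn7sk, short RNAs made by RNA polymerase III, also rose. Rpph1, the RNA of ribonuclease P, had 2369 and 3524 normalised counts in KO+Rescue libraries, 938 and 1585 in KO, and 249 and 513 in WT (3.01 ± 0.53, adjusted p = 0.0063). Rn7sk, which holds the elongation factor P-TEFb inactive, had 156 and 135 in KO+Rescue, 59.4 and 85 in KO, and 40.3 and 28.5 in WT (2.07 ± 0.31, adjusted p = 0.003). In both, KO+Rescue was above KO and KO above WT in every library. Rn7sk is in the core, whereas the Rpph1 call was lost without KO+Rescue B (adjusted p = 0.071) or WT A (0.061). These RNAs carry no poly(A) tail, and how far each library retained such RNA was not tested.

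Targets of ATF4, the transcription factor of the integrated stress response, were lower. Of 28 tested, 13 fell and none rose (median -0.40), with 3 lower calls without KO+Rescue B and 2 without WT A. Chac1, which degrades glutathione, had 111 and 87.3 normalised counts in KO+Rescue, 101 and 86.3 in KO, and 239 and 285 in WT (-1.40 ± 0.17, adjusted p = 0.00055). Stc2, a secreted glycoprotein, had 61.7 and 48.1 in KO+Rescue, 71.7 and 71.5 in KO, and 110 and 112 in WT (-1.01 ± 0.17, adjusted p = 0.0045). For Chac1 the KO+Rescue and KO libraries overlapped, and for Stc2 KO+Rescue was the lowest group. Trib3 (-0.78), a pseudokinase that feeds back on ATF4, and Pck2 (-0.81), the mitochondrial PEP carboxykinase, also fell, without being in the core.

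The smooth muscle actin programme held some of the steadiest increases. Acta2, smooth muscle actin, had 171 and 118 normalised counts in KO+Rescue libraries, 230 and 270 in KO, and 21.3 and 32.6 in WT (2.38 ± 0.35, 5.22-fold, adjusted p = 0.0026). Tagln (transgelin), an actin-bundling protein, had 1061 and 1380.2 in KO+Rescue, 1513 and 1911 in KO, and 398 and 481 in WT (1.46 ± 0.23, adjusted p = 0.0034). KO+Rescue lay between WT and KO in both genes, and both are in the core. Myl9, a myosin light chain (0.88), and Tpm4, a tropomyosin (0.67), also rose, with no call without WT A (adjusted p = 0.067 and 0.089). The Tpm4 call was also lost without KO+Rescue B (0.064). Of the 16 tested genes 6 rose and 1, Ctgf, fell. The list's median was 0.15, and with equal library totals it turned to -0.18, with 2 higher and 4 lower. Without KO+Rescue B there were 3 higher calls and without WT A 2.

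Cd99, a cell surface glycoprotein, and Gulp1, an adaptor for the engulfment of dying cells, were higher in a similar way. Cd99 had 159 and 183 normalised counts in KO+Rescue, 185 and 241 in KO, and 29.6 and 26.5 in WT (2.57 ± 0.29, adjusted p = 0.00037). Gulp1 had 189 and 208 in KO+Rescue, 127 and 142 in KO, and 41.5 and 46.8 in WT (2.15 ± 0.23, adjusted p = 0.00023). Thy1, a surface glycoprotein of fibroblasts and some stem cells, was lower, with 113 and 74.8 in KO+Rescue, 118 and 111 in KO, and 362 and 316 in WT (-1.87 ± 0.20, adjusted p = 0.00023). In these 3 genes, all in the core, the KO and KO+Rescue libraries lay together on 1 side of WT. Aen, a p53-induced nuclease, behaved likewise at 1954 and 1704 in KO+Rescue, 2435 and 2259 in KO, and 3620.4 and 3644 in WT (-0.99 ± 0.11, adjusted p = 0.0004).

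Other genes with some of the largest differences belong to no list. Among those that fell, Trim43a had 16.7 and 17.8 normalised counts in KO+Rescue, 31.4 and 58.0 in KO, and 295 and 368 in WT (-4.18 ± 0.64, adjusted p = 0.0031). Ramp2, a partner of the calcitonin-like receptor that makes it bind adrenomedullin, had 8.37 and 0 in KO+Rescue, 10.1 and 10.8 in KO, and 78.2 and 43.8 in WT (-4.28 ± 0.71, adjusted p = 0.0046). Gm41031 (-2.86 ± 0.42) fell as well, and these 3 genes are in the core. Dnajc5g (-4.42 ± 0.96), a relative of the cysteine string proteins, was called lower too, but not without KO+Rescue B or WT A (adjusted p = 0.12 each).

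Hist2h2bb and Dleu2 rose with a wide gap between the 2 KO+Rescue libraries. Hist2h2bb, a histone H2B gene, had 39.7 and 107 normalised counts in KO+Rescue, 29.1 and 41.8 in KO, and 9.48 and 12.2 in WT (2.49 ± 0.49, adjusted p = 0.0095). Dleu2, the host RNA of a microRNA cluster, had 26.1 and 89.0 in KO+Rescue, 35.9 and 17.5 in KO, and 4.74 and 9.16 in WT (2.69 ± 0.67, adjusted p = 0.021). In both, KO+Rescue B stood well above KO+Rescue A, and the calls were lost without it (adjusted p = 0.12 and 0.23) or without WT A (0.073 and 0.15). Histone gene copies are near-identical, so the Hist2h2bb reads may belong in part to other copies.

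Genes on chromosome 11 were lower as a body. The median log2 difference of its 1233 tested genes was -0.28, against -0.04 for the genes elsewhere, and 21.0% were called lower and 4.54% higher, against 8.0% and 9.51% elsewhere. The medians of the other chromosomes lay between -0.09 and 0.05. In 10 bins of the chromosome by gene order, the first, with starts up to 21556692 (GRCm38), had a median of 0.10, and the other 9 had medians between -0.44 and -0.20. The gap between chromosome 11 and the rest was -0.22 to -0.26 in the fits that left out 1 library, and -0.24 with equal library totals. The count of lower calls moved far more, from 259 in all to 45 without KO+Rescue B and 41 without WT A. In KO mESCs, set against the same WT libraries, the first bin had a median of 0.15 and the other 9 had medians between -0.51 and -0.20. Between KO+Rescue and KO the chromosome's median was 0.02.

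Tcf7, Suz12, Ezh1, Stc2 and the lower-expressed Wnt3 and Slfn3 are on chromosome 11, as are Grb10 and Ramp2. So are 4 of the 5 most abundant genes that fell. Actg1, a cytoplasmic actin, had 45903 and 45321 normalised counts in KO+Rescue libraries, 53959 and 49289.8 in KO, and 75776 and 64534 in WT (-0.62 ± 0.18, adjusted p = 0.033). Hspa4, Mybbp1a and Kpnb1, a chaperone, a nucleolar protein and a nuclear import receptor, fell by 0.52, 0.72 and 0.69. Trp53, which encodes p53, had 8851 and 8005 in KO+Rescue, 9340.4 and 8506 in KO, and 16586 and 11933 in WT (-0.74 ± 0.17, adjusted p = 0.017). These 5 genes were lower in every KO+Rescue library than in any WT library, where 58.1% of all tested genes had no overlap in 1 direction or the other. Each of the 5 lost its call without KO+Rescue B or WT A.

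**Figure D4:**
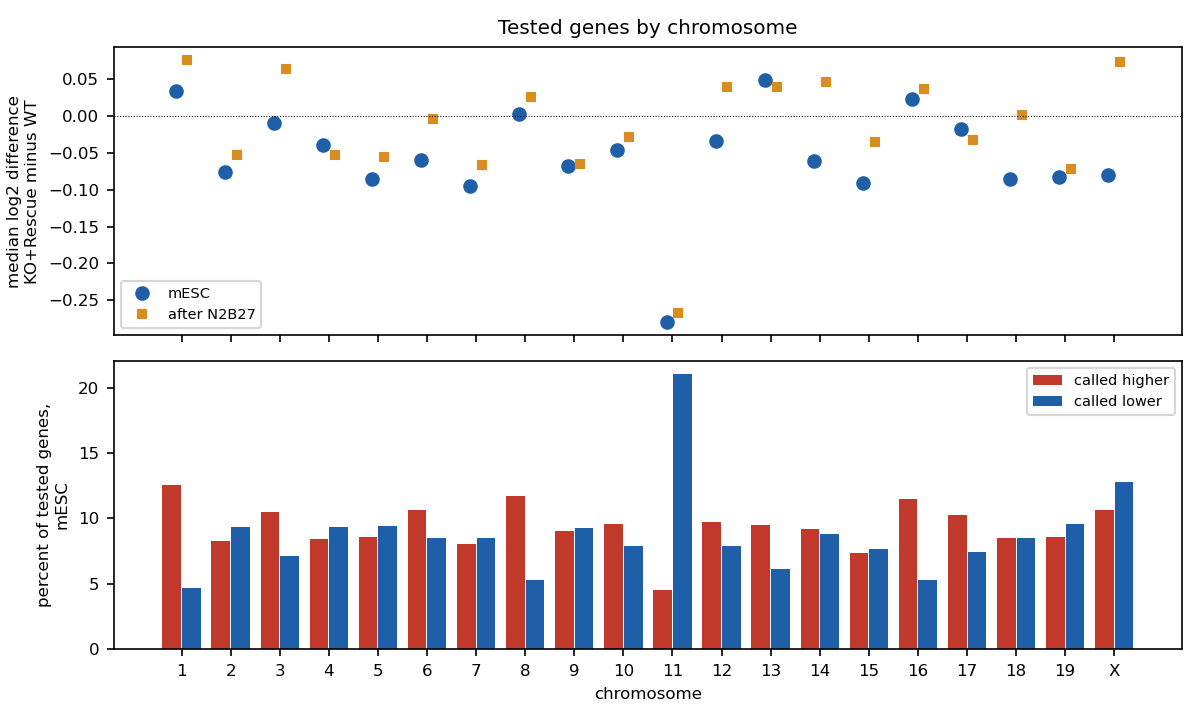
Top, median log2 difference between KO+Rescue and WT of the tested genes of each chromosome in mESCs (circles) and after N2B27 (squares). Bottom, percent of each chromosome's tested genes called higher or lower in mESCs, where chromosome 11 has 21.0% lower and 4.54% higher.

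After N2B27, the same contrast was taken in libraries that share no sample with the mESC ones but come from the same KO+Rescue and WT lines. Agreement between the stages is therefore not a repeat with other clones. There 1696 genes (11.1%) were called, 592 higher and 1104 lower. Calls in the same direction at both stages numbered 672, which is 24.1% of the mESC calls and 39.6% of the N2B27 calls, and 10 genes were called in opposite directions. Of the mESC calls 88.3% kept their sign, against 69.4% of all tested genes. Chromosome 11 had a median of -0.27 after N2B27.

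Proser1 stayed high, at 3041 and 2994 normalised counts in KO+Rescue and 829 and 685 in WT after N2B27 (2.00 ± 0.20, adjusted p = 5.7e-05). Rian had 3413 and 3322 in KO+Rescue and 70.2 and 107 in WT (5.26 ± 0.21, adjusted p = 4.2e-08), and Xlr3a 42.2 and 64.8 in KO+Rescue and 676 and 1201 in WT (-4.08 ± 0.36, adjusted p = 2.7e-05). For these 3 genes the stage difference, tested below, was not called. Gbp2 was at 68.1 and 49.8 in KO+Rescue and 1610.4 and 1994 in WT (-4.92 ± 0.48, adjusted p = 5.1e-05), with the WT level far above that in mESCs. Of the interferon list 22 of 34 genes were lower after N2B27 and none higher. All tested genes gave 592 higher and 1104 lower calls of 15335 there. The ribosomal protein list had 2 higher calls of 79 tested. Its median after N2B27 was 0.60, against 0.92 in mESCs and -0.03 for all tested genes after N2B27. None of its members had a called stage difference. The ATF4 list had 2 higher and none lower of 28, with a median of 0.01 after N2B27. Calls as few as these are not read as a result about either list.

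The difference between the stages was tested directly, as the contrast after N2B27 minus that in mESCs. It was called for 124 genes (0.809%), 34 with a more positive and 90 with a more negative difference after N2B27, and 54 of them were also called in mESCs. Grb10 had 2771 and 2761 normalised counts in KO+Rescue and 6002 and 4629.9 in WT after N2B27. Its difference from WT there was -0.93 ± 0.16, against -3.57 in mESCs, with a stage difference of 2.64 ± 0.23 (adjusted p = 0.00048) and the smallest adjusted p of the genes named here. Sema6a and Hmga2, low in KO+Rescue mESCs, had means above WT after N2B27. Sema6a had 3508 and 3313 in KO+Rescue and 3039 and 2586 in WT (0.28 ± 0.21, not called, stage difference 2.54 ± 0.30, adjusted p = 0.0017). Hmga2 had 422 and 367 in KO+Rescue and 243 and 281 in WT (0.59 ± 0.16, adjusted p = 0.035, stage difference 1.95 ± 0.23, adjusted p = 0.0017). The Hmga2 call after N2B27, opposite in sign to that in mESCs, was lost in 3 of the 4 fits without a library, while its stage difference was called in 8 of 8.

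Other genes differed mainly after N2B27. Irf1, a transcription factor of the interferon response, had 558 and 480.0 normalised counts in KO+Rescue and 2228 and 2715 in WT there (-2.25 ± 0.13), against -0.41 ± 0.13 in mESCs (stage difference -1.84 ± 0.19, adjusted p = 0.0015). Lefty2, a Nodal inhibitor, had 495 and 439 in KO+Rescue and 1901 and 2266 in WT (-2.15 ± 0.12), against -0.53 ± 0.12 in mESCs (stage difference -1.62 ± 0.18, adjusted p = 0.0017). Grb10, Sema6a, Hmga2, Irf1 and Lefty2 kept the stage call in all 8 fits that left out 1 library. T (2.03 ± 0.37) and Egr1 (2.43 ± 0.48) were called as well, at an adjusted p of 0.028 and 0.04, but T kept the call in 3 of 8 such fits and Egr1 in 2.

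**Figure D5:**
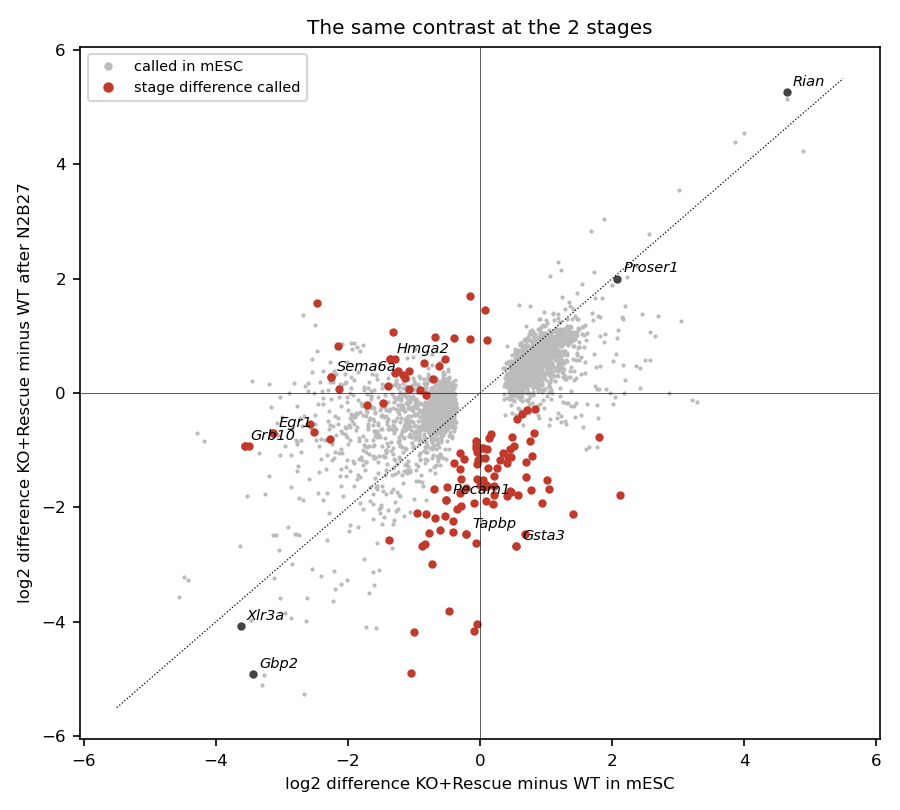
Log2 difference between KO+Rescue and WT in mESCs (horizontal) and after N2B27 (vertical) for genes called in mESCs (grey) and for genes whose stage difference was called (red). Rian, Proser1 and Xlr3a (dark) lie near the dotted line of equality, Gbp2 (dark) below it, and Grb10, Sema6a and Hmga2 above it at the left.

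Set against KO mESCs, the KO+Rescue libraries differed in 232 genes (1.51%), 73 higher and 159 lower. The comparison shares its KO+Rescue libraries with the one against WT, so values are given side by side only. Among the genes named here, 5 kept a call against KO in all 4 fits without a library. Proser1 was the 1 that rose, by 5.49-fold. The other 4 fell. Wnt8a was 4.15-fold lower than in KO, Hmga2 2.44-fold (-1.29 ± 0.16, adjusted p = 0.0029) and Sema6a 5.14-fold (-2.36 ± 0.21, adjusted p = 0.00036). 1700013H16Rik, an X-linked gene, had 29.3 and 16 normalised counts in KO+Rescue, 178 and 182 in KO, and 230.0 and 344 in WT. Its difference was -3.0 ± 0.39 from KO (adjusted p = 0.0035) and -3.64 ± 0.39 from WT (adjusted p = 0.00023). In each of these 4 genes the KO+Rescue libraries lay below both the KO and the WT libraries. For most other genes of the core named above, among them Meg3, Xlr3a, Stra8, Sycp1, Egr1, Dnmt3a, Tagln, Acta2, Cd99 and Chac1, the difference from KO did not pass the test, which does not show that the levels were equal. In bulk libraries such as these, fewer cells expressing a gene and less of its RNA per cell cannot be told apart.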

How the data were processed

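RNA was sequenced from 12 libraries, 2 for each of 3 genotypes at 2 stages. Per the labels and the study's methods, the authors trimmed reads with Trimmomatic, aligned them with STAR to mm10, removed reads of the Y chromosome, counted read pairs per RefSeq gene with featureCounts and normalised with DESeq2. Tool versions and the strand setting of the counting are not given in the sources used here, so overlapping and antisense genes cannot be told apart. The deposited values are a signal, normalised counts (counts divided by a size factor). Dividing each library by its smallest step gave whole reads for 100.0% of values (tolerance 0.001).

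The main test was limma 3.58.1 (R 4.3.3) on log2(normalised count + 1), with 1 mean per group over all 12 libraries, an intensity trend, a minimum mean of 10 and Benjamini-Hochberg adjustment over 15335 genes. A gene was called at an adjusted p under 0.05. Fold changes on this scale understate the change of low genes. Another 6 genes that passed the minimum were Y-linked and left out. edgeR 4.0.16 and DESeq2 1.42.0 on the recovered reads, equal library totals, pseudocounts of 0.5 and 5, no filter, a mean of at least 50, only the compared groups, no intensity trend, a replicate block and leaving out each library were the alternatives. Removal of the transcript length trend was added after seeing the data. The tests were checked on simulated counts in which all libraries shared the same spread and had no length trend. That check therefore does not bear on the unequal spread or the length trend of these libraries. Promoter sequences are from RefSeq (GRCm38.p6), and the guide was matched to GRCm39.

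Genes were named by a fixed rule. They comprise the PROSER1 complex, the 15 largest differences each way among calls with a group mean of at least 50 and no overlap, the 5 most abundant calls each way, up to 5 calls per gene list with the smallest adjusted p, and the 5 clearest stage differences each way. Some genes picked by this rule, and a list that holds one, are not reported here. The comparison and the 45 gene lists were chosen with earlier results of these data known.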

Additional observations from a re-analysis of the deposited data

Results flagged for a closer look

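The contrast of KO+Rescue with WT differed between the stages, by the test of that difference (limma with Benjamini-Hochberg adjustment over 15335 genes), for 17 of the genes named. Each value is the log2 difference after N2B27 minus that in mESCs. In 11 genes it was positive, namely Grb10 (2.64), Sema6a (2.54), Egr1 (2.43), T (2.03), Hmga2 (1.95), Gm30189 (1.85), Usp29 (1.84), Chac1 (1.53), C77370 (1.45), Sycp1 (1.29) and Pim2 (1.14). It was negative for Gsta3 (-3.22), a glutathione transferase, Nsg2 (-2.35), a neuronal vesicle protein, Tapbp (-2.26), which loads peptides on MHC class I, Irf1 (-1.84), Lefty2 (-1.62) and Pecam1 (-1.36).

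Gsta3 had 23.5 and 25.4 normalised counts in KO+Rescue and 172 and 151 in WT after N2B27, against 1288 and 2080.1 in KO+Rescue and 923 and 1374 in WT in mESCs. Tapbp had 223 and 189 in KO+Rescue and 1242 and 1048 in WT after N2B27, against 639.9 and 625 in KO+Rescue and 805 and 665 in WT in mESCs. In both genes the groups overlapped or lay close together in mESCs and stood far apart after N2B27. Grb10, Sema6a, Hmga2, Gsta3, Nsg2, Tapbp, Irf1 and Lefty2 kept the stage call in all 8 fits without a library. Gm30189, C77370 and Pecam1 kept it in 6, Chac1 in 5, Usp29 in 4, T and Pim2 in 3, Egr1 in 2 and Sycp1 in 1.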

How the results depend on the processing

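For KO+Rescue against WT in mESCs (2784 calls), edgeR gave 2804, DESeq2 3314 and removal of the length trend 2678. Equal library totals gave 4553, no filter 1507, no intensity trend 950 and only the compared groups 311. Leaving out a library gave 270 to 4270. After N2B27 (1696 calls) no intensity trend gave 995, only the compared groups 686, and leaving out a library 455 (without KO+Rescue A) to 2662 (without WT B). For the stage difference (124 calls) DESeq2 gave 372, equal library totals 40, no filter 41, no intensity trend 51, only the compared groups 16, and leaving out a library 27 to 229. Against KO (232 calls) DESeq2 gave 388, only the compared groups 1 and leaving out a library 22 to 170. Apart from the replicate block, given next, every other setting reported for these 4 counts stayed within 1.5 times. Removal of the length trend is reported for the mESC count only. The cause of these shifts was not tested, except that fewer libraries enter some fits.

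No label makes a letter (A or B) a shared batch, and 2 letters are too few to show pairing from the data. Same-letter libraries of the 3 mESC groups correlated at 0.125 to 0.171 in their deviations from the group means, and over all pairs of groups at -0.048 to 0.413. The highest value, 0.413, was between WT in mESCs and WT after N2B27, so the WT libraries of the 2 stages may not deviate independently. With the letter as a replicate block the counts were 4641 in mESCs, 3562 after N2B27, 410 for the stage difference and 587 against KO.

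Of 112 genes named here, followed over 15 settings, 1467 values kept direction and call, 182 lost the call, 12 gained one and 8 changed sign. The sign changes were all in genes without a call. Tet1 was at -0.045 with equal library totals, and Tet2 at 0.10 with the length trend removed. Over the fits without a library, Tet2 ran over -0.14 to 0.10, Nono over -0.14 to 0.0070, Sfpq over -0.36 to 0.056, COX1 over -0.57 to 0.17 and Gm30189 over -0.37 to 0.050. Values under about 10 normalised counts rest on few reads.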

Other observations

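Some genes of other pathways were also called. Of 15 retinoic acid pathway genes 3 fell, led by Crabp1, which carries retinoic acid in the cytosol. It had 382 and 419 normalised counts in KO+Rescue mESCs, 184 and 216 in KO and 712 and 742 in WT (-0.86 ± 0.16 against WT, adjusted p = 0.0071). Crabp1 was also higher in KO+Rescue than in KO (1.00 ± 0.16, adjusted p = 0.0088), a call lost without KO+Rescue B or KO A. Gli1, a Hedgehog target, likewise lay between the others, at 120 and 137 in KO+Rescue, 53.8 and 47.2 in KO and 273 and 242 in WT (-1.0 ± 0.28, adjusted p = 0.031), while Gli2 rose (0.59 ± 0.17, adjusted p = 0.031). Of the 4 fits without a library, Gli1 was called in 1, that without WT B, and Gli2 in none (adjusted p from 0.056 to 0.15).

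Sox1, the first neural factor, had 39.7 and 62.3 normalised counts in KO+Rescue mESCs, 51.5 and 45.9 in KO and 20.2 and 10.2 in WT (1.72 ± 0.34, adjusted p = 0.0092), and the call was lost without KO+Rescue B (adjusted p = 0.10). It was called after N2B27 too (2.12, adjusted p = 0.0021). Myc had 1169 and 1015 in KO+Rescue, 961 and 874 in KO and 2563 and 1789 in WT (-0.97 ± 0.17, adjusted p = 0.0058), with an adjusted p of 0.063 without KO+Rescue B. Pim2, a LIF-responsive kinase, had 599 and 525 in KO+Rescue, 1159 and 997 in KO and 1309 and 1067 in WT (-1.07 ± 0.15, adjusted p = 0.0015), and was called without each of the 4 libraries in turn. Its KO libraries lay near the WT range and its KO+Rescue libraries below both. The Hox list (6 tested) and the 2-cell-like list (6 tested) had no calls. Beside shares of 9.11% higher and 9.04% lower over all tested genes, lists this short are not read as a result.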
